A study of Mus musculus with 12 samples.

Results

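The major urinary protein (Mup) genes were followed here through 10 named members, Mup1, Mup3, Mup7, Mup10, Mup11, Mup12, Mup13, Mup17, Mup20 and Mup21, taken by symbol from the 28036 genes of a liver RNA count table. All 10 had counts and passed the filter on low counts. The 12 livers came from C57BL/6J mice in 4 groups of 3. EE livers came from mice with MASH, a steatohepatitis brought on by a high-fat diet, that received oral Eleutheroside E, a lignan glycoside found in Eleutherococcus roots, over the last 4 weeks at 100 mg/kg. Resmetirom livers came from the same model dosed orally with 3 mg/kg of resmetirom, which activates the beta form of the thyroid hormone receptor, over those 4 weeks. MASH livers (high-fat diet) and control livers (normal chow) received 0.5% CMC-Na as vehicle. Model establishment took 8 weeks before dosing, 12 weeks in all. The labels give no sex, and CMC-Na is named for no drug group. The labels number the livers within a group and do not say that each is from its own mouse, so p-values measure the spread between these samples.

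Major urinary proteins are small secreted lipocalins that hepatocytes make in large amounts, that pass into the urine and that bind volatile pheromones in a hydrophobic pocket. The genes form a cluster on chromosome 4 that grew by repeated duplication, so most of its copies are almost the same in sequence. In mice their liver transcription is known to depend on pulsatile growth hormone acting through STAT5b, and to respond to thyroid hormone, androgen and food intake. Mup20, also called darcin, is a male pheromone in its own right.

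How alike the members are decides how far a count can be tied to 1 gene, so a stretch of 90 coding bases near the start of the protein is shown for the members the results turn on. It corresponds to coding bases 16 to 105 of Mup11, read from the GENCODE M21 transcripts (GRCm38). Capitals mark bases that differ from Mup11.
Mup11: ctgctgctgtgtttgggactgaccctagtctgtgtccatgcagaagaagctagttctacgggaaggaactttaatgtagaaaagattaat
Mup17: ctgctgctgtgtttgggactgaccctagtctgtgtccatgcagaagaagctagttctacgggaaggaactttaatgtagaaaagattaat
Mup7: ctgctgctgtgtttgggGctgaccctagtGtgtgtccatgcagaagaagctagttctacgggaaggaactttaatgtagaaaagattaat
Mup20: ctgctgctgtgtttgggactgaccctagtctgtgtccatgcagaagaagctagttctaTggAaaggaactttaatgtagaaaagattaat
Mup3: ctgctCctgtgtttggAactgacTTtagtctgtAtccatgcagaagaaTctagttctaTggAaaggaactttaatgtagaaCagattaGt
Mup21: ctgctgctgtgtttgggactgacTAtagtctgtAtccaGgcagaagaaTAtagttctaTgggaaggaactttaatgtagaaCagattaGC

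Mup17 carried the same letters as Mup11 over this stretch, as did Mup10, and Mup1, Mup12 and Mup13 had 1 difference each. Mup7 and Mup20 had 2 differences, and Mup3 and Mup21 had 10. Over the whole coding sequence, Mup1, Mup7, Mup10, Mup11, Mup12, Mup13 and Mup17 were 98.3% to 99.6% identical to each other. Mup20 was 90.1% to 91.4% identical to those 7, Mup21 83.7% to 84.8% and Mup3 82.4% to 83.7%. The labels' protocols give reads of 150 bases. No run of 150 bases in the transcript of Mup3, Mup20 or Mup21 occurred in a coding transcript of another Mup gene, whereas 40.4% of such runs in Mup17, 73.8% in Mup13 and 84.4% in Mup10 did. The deposited values of all 10 members were fractional in all 12 livers, against 11.1% of all gene values with a count, and so the values of Mup3, Mup20 and Mup21 were fractional too. Levels of the 7 near-identical members are uncertain one by one, because the counting could split their reads. Mup3, Mup20 and Mup21 shared no such run with another coding Mup gene in this annotation, but Mup pseudogenes and other transcripts were not searched. The source of their fractional values was not tested.

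Library totals lay between 17297864 and 21793311 counts. Levels are given as CPM, counts brought to a common library size with TMM factors (trimmed mean of M values). A pair of libraries stood apart: mitochondrially encoded genes held 35.4% of the counts of control 1 against 2.40% to 4.38% elsewhere, and the scaling factors of control 1 and resmetirom 2 were 0.508 and 0.663 against 0.960 to 1.41 in the others. For several members, values without one or both are also given. In whole liver, fewer hepatocytes and less RNA per hepatocyte cannot be told apart.

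The 10 members took a larger and more even share of library counts in EE livers than in MASH or control livers, and a very uneven one in resmetirom livers. Their summed share of library counts was 5.44%, 6.03% and 5.75% in EE livers 1 to 3. It was 2.53%, 12.2% and 4.85% in resmetirom livers, 2.08%, 5.21% and 1.33% in MASH livers, and 2.85%, 4.24% and 2.19% in control livers. The 3 EE livers lay above all 3 MASH and all 3 control livers, whereas the resmetirom livers overlapped every other group and resmetirom 2 alone exceeded the EE livers. Group means were 5.74% ± 0.292 in EE, 6.53% ± 5.05 in resmetirom, 2.87% ± 2.06 in MASH and 3.09% ± 1.05 in control livers (SD, n = 3 each). EE minus MASH came to 2.87 percentage points, and resmetirom minus MASH to 3.66, which fell to 0.817 without resmetirom 2. MASH minus control was -0.223 points, well inside the spread of either group. With mitochondrial genes left out of the totals, control 1 held 4.41%, and MASH minus control was -0.732 points (SD 2.13 in MASH and 1.23 in control livers). No test was run on this summed share.

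**Figure D1:**
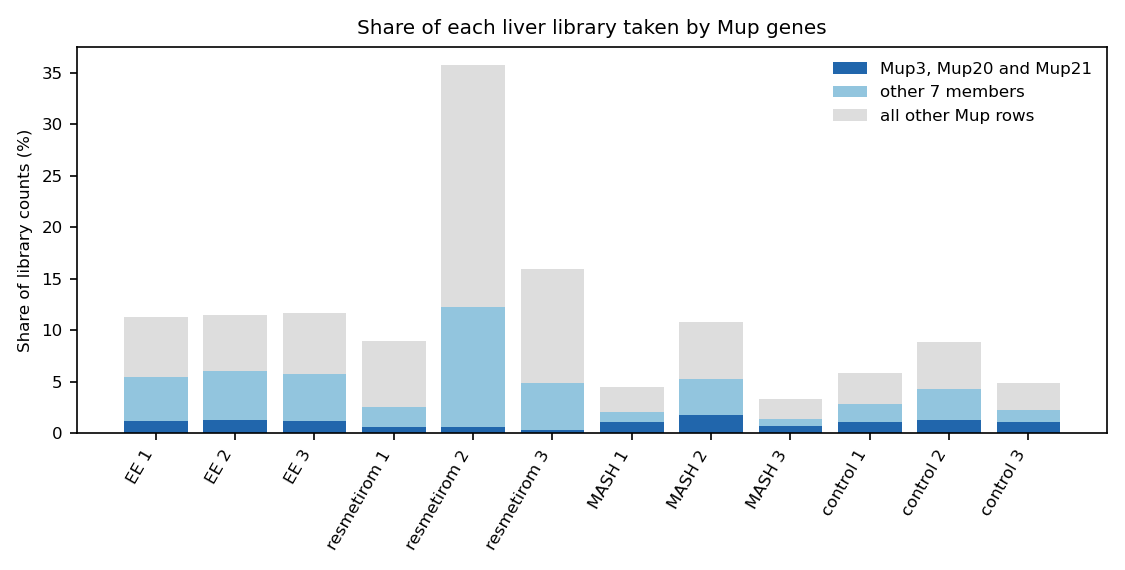
Share of library counts (%, y axis) taken by Mup genes in each of the 12 livers (x axis), stacked as Mup3, Mup20 and Mup21 (dark blue), the other 7 members (light blue) and all other Mup rows of the table (grey). The 3 EE livers reached 11.3% to 11.7% in all, and resmetirom 2 reached 35.7%, of which the members held 12.2%.

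With every Mup row of the table included, the family held 11.3%, 11.5% and 11.7% of counts in EE livers, 8.90%, 35.7% and 16.0% in resmetirom livers, 4.42%, 10.8% and 3.33% in MASH livers and 5.82%, 8.84% and 4.85% in control livers. The 10 members made up a smaller part of these family counts under resmetirom, 28.4% to 34.2%, than in the other 9 livers, where they made up 39.9% to 52.6%.

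The make-up of the members' counts differed between groups in ways their sum does not show. Mup17 held 26.2%, 28.7% and 29.4% of the members' counts in resmetirom livers, against 5.52% to 9.38% in EE livers, 3.07% to 6.62% in MASH livers and 2.14% to 5.11% in control livers. The 3 resmetirom livers gave nearly the same share although their totals differed widely, and no other liver came near it. Mup3 went the other way, with 2.85%, 1.94% and 3.25% in resmetirom livers, against 9.78% to 12.1% in EE, 14.8% to 31.9% in MASH and 15.8% to 29.1% in control livers. Mup3, Mup20 and Mup21 together held 20.4% ± 0.972 of the members' counts in EE livers, 10.8% ± 10.2 in resmetirom livers, 46.8% ± 11.8 in MASH livers and 39.1% ± 10.2 in control livers (SD, n = 3 each). Of all library counts, these 3 genes held 1.17% ± 0.0550 in EE, 0.459% ± 0.179 in resmetirom, 1.18% ± 0.509 in MASH and 1.14% ± 0.0941 in control livers. The larger share of the 10 members in EE livers sat in the 7 near-identical members, which held 4.57% ± 0.265 in EE, 6.07% ± 5.01 in resmetirom, 1.69% ± 1.56 in MASH and 1.95% ± 0.961 in control livers.

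**Figure D2:**
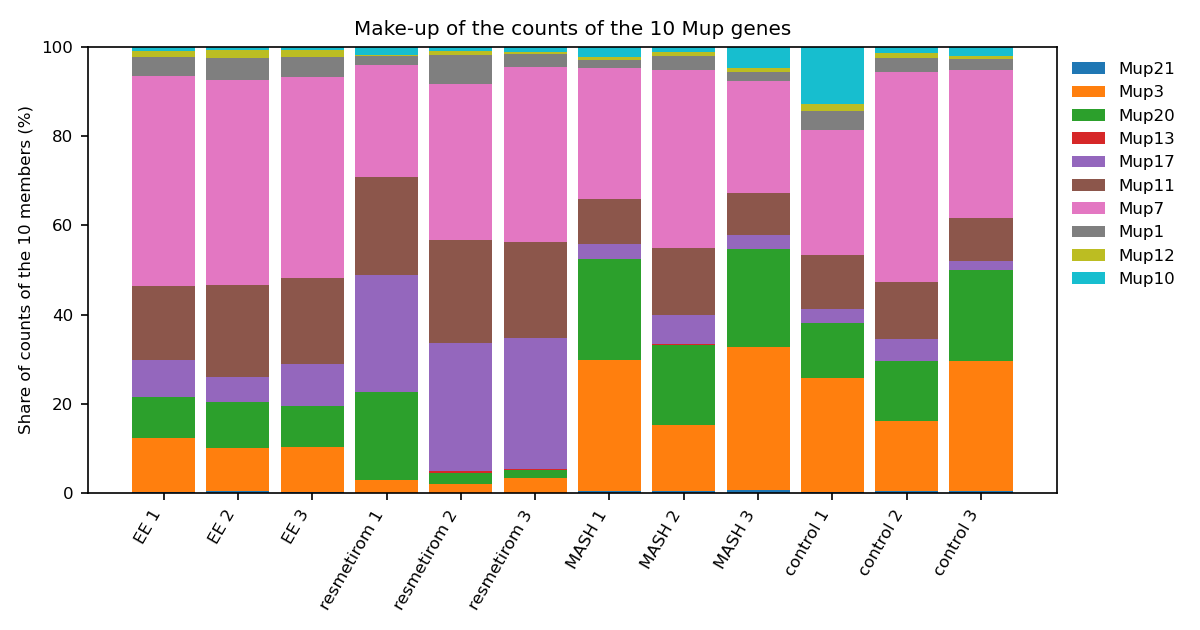
Make-up of the counts of the 10 members (%, y axis, stacked to 100) in each liver (x axis), 1 colour per gene. Mup17 (purple) takes 26.2% to 29.4% in the resmetirom livers and at most 9.38% elsewhere, and Mup3 (orange) at most 3.25% in the resmetirom livers and at least 9.78% elsewhere.

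Mup21 was far lower in resmetirom livers than in any other liver, and it was the member with the lowest p in each comparison with them. It stood at 1.58, 9.43 and 1.43 CPM in resmetirom livers, against 86.4, 201 and 82.5 CPM in MASH livers. EE livers had 141, 243 and 176 CPM and control livers 132, 158 and 90.7 CPM. The highest resmetirom liver, resmetirom 2, was still below every liver of the other groups, and behind the low values stood 41.0, 126 and 28.0 counts. Between resmetirom and MASH livers, Mup21 fell by 4.94 on the log2 scale (SE 0.717), which is 30.6-fold lower (edgeR quasi-likelihood test, Benjamini-Hochberg adjusted p = 0.0155). The change against control livers was -4.98 (SE 0.718, adjusted p = 0.0104), and EE livers exceeded resmetirom livers by 5.54 (SE 0.736, adjusted p = 0.0162). Against MASH livers the log2 change lay between -6.36 and -4.39 when single livers were left out, but the adjusted p was 0.0560, 0.0649 and 0.0568 without MASH 1, MASH 2 and MASH 3. Without control 1 and resmetirom 2 it was -6.35 (adjusted p = 0.00554). Fitted on the 2 compared groups alone, the changes kept their size but did not pass, with adjusted p of 0.120 against MASH, 0.184 against control and 0.119 for EE against resmetirom.

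Mup21 was the 1 of 10 members that passed the test between resmetirom and MASH livers, where 0.665% of all tested genes did. It was also the 1 of 10 called between EE and resmetirom livers, where 0.307% of tested genes were called. Between resmetirom and control livers 2 of 10 members were called, Mup21 (lower) and Mup13 (higher), where 3.16% of tested genes were called. These comparisons share the resmetirom livers, so their results are not separate evidence.

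Mup3, 94.8% identical to Mup21 over the coding sequence, was also low in resmetirom livers. It had 511, 3572 and 1475 CPM in resmetirom livers, against 4991, 6683 and 3477 CPM in MASH livers. EE livers had 6644, 6087 and 5950 CPM, and control livers 14389, 6172 and 5592 CPM. Resmetirom livers lay below all EE and all control livers, while resmetirom 2 overlapped the lowest MASH liver. The log2 change was -1.45 against MASH (SE 0.597, adjusted p = 0.285) and -2.23 against control livers (SE 0.613, adjusted p = 0.0669), neither of which passed in edgeR. DESeq2 called the change against control (-2.23, adjusted p = 0.00231) and not the one against MASH (adjusted p = 0.130). Leaving out resmetirom 2 gave -2.35 against MASH (adjusted p = 0.150) and -3.13 against control (adjusted p = 0.0349), and leaving out control 1 as well gave -2.35 against MASH (adjusted p = 0.0237) and -2.56 against control (adjusted p = 0.0160). EE against resmetirom was 1.75 (SE 0.603, adjusted p = 0.280), and 2.64 (adjusted p = 0.0213) without control 1 and resmetirom 2.

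Mup20, the pheromone darcin, had 3528, 4786 and 883 CPM in resmetirom livers, against 3841, 8140 and 2405 CPM in MASH livers. EE livers had 4961, 6374 and 5546 CPM and control livers 6816, 5188 and 3903 CPM. Resmetirom livers overlapped MASH and control livers and lay below the 3 EE livers. The log2 change was -0.65 against MASH (SE 0.562, adjusted p = 0.614), and 0.88 for EE against resmetirom (SE 0.564, adjusted p = 0.601). Within the resmetirom group, replicate 2 was the highest liver for Mup20, as for Mup21 and Mup3, and replicate 3 was far below the other pair.

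Among the near-identical copies, Mup13 and Mup17 were higher in every resmetirom liver than in any MASH or control liver. Mup13, a minor member elsewhere, had 22.4, 859 and 33.6 CPM in resmetirom livers, against 2.65, 7.65 and 1.05 CPM in MASH livers. EE livers had 11.5, 7.45 and 11.0 CPM and control livers 3.41, 4.86 and 2.54 CPM. The resmetirom values lay above all other livers, and resmetirom 2 was far above the other pair. EE against resmetirom was -4.93 (SE 1.25, adjusted p = 0.134), with groups that did not overlap. The log2 change was 6.39 against control (SE 1.35, adjusted p = 0.0311), which passed, and 6.33 against MASH (SE 1.34, adjusted p = 0.0571), which did not. Without resmetirom 2 the change against MASH was 2.88 (adjusted p = 0.0991), and without control 1 as well it was 2.88 (adjusted p = 0.0477). Against control it was 2.95 without resmetirom 2 (adjusted p = 0.0445), and for EE against resmetirom -1.48 (adjusted p = 0.271). The change against control did not pass in limma voom (4.68, adjusted p = 0.0739) or without the filter on low counts (6.37, adjusted p = 0.110). Its edgeR adjusted p rose above 0.05 on leaving out any 1 control liver (0.0536, 0.0805 and 0.0895 for control 1, 2 and 3), MASH 1 (0.0517), or any 1 EE liver (0.0516 to 0.0574).

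Mup17 had 4696, 52766 and 13348 CPM in resmetirom livers, against 566, 2989 and 335 CPM in MASH livers. EE livers had 4537, 3437 and 5618 CPM and control livers 1788, 1994 and 411 CPM. Resmetirom livers did not overlap MASH or control livers, and EE livers lay above both of those groups too. The log2 change of resmetirom was 4.19 against MASH (SE 1.05, adjusted p = 0.0949) and 4.08 against control (SE 1.04, adjusted p = 0.0551). Both missed the threshold in edgeR, and DESeq2 called both (adjusted p = 0.00242 and 0.00196). Without resmetirom 2 the change against MASH was 2.79 (adjusted p = 0.258). EE against resmetirom was -2.38 (SE 0.966, adjusted p = 0.364), and -0.98 (adjusted p = 0.665) without resmetirom 2.

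The large near-identical members followed resmetirom 2. Mup7, the most abundant member by group mean, had 4495, 64482 and 17880 CPM in resmetirom livers, against 4965, 18064 and 2754 CPM in MASH livers, and the groups overlapped (log2 change 1.75, SE 0.867, adjusted p = 0.368). Mup11 had 3916, 42263 and 9754 CPM in resmetirom livers, against 1733, 6750 and 1015 CPM in MASH livers (log2 change 2.56, SE 0.891, adjusted p = 0.213). Mup1 had 373, 12053 and 1266 CPM in resmetirom livers, against 317, 1401 and 222 CPM in MASH livers (log2 change 2.82, SE 1.11, adjusted p = 0.263). In all 3 genes 1 liver was several times higher than the other pair of its group. Mup12 followed suit, with 39.0, 1698 and 234 CPM in resmetirom livers, against 102, 438 and 84.1 CPM in MASH livers. Mup10 had 330, 1526 and 509 CPM in resmetirom livers, against 396, 465 and 518 CPM in MASH livers, and both genes overlapped between the groups.

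**Figure D3:**
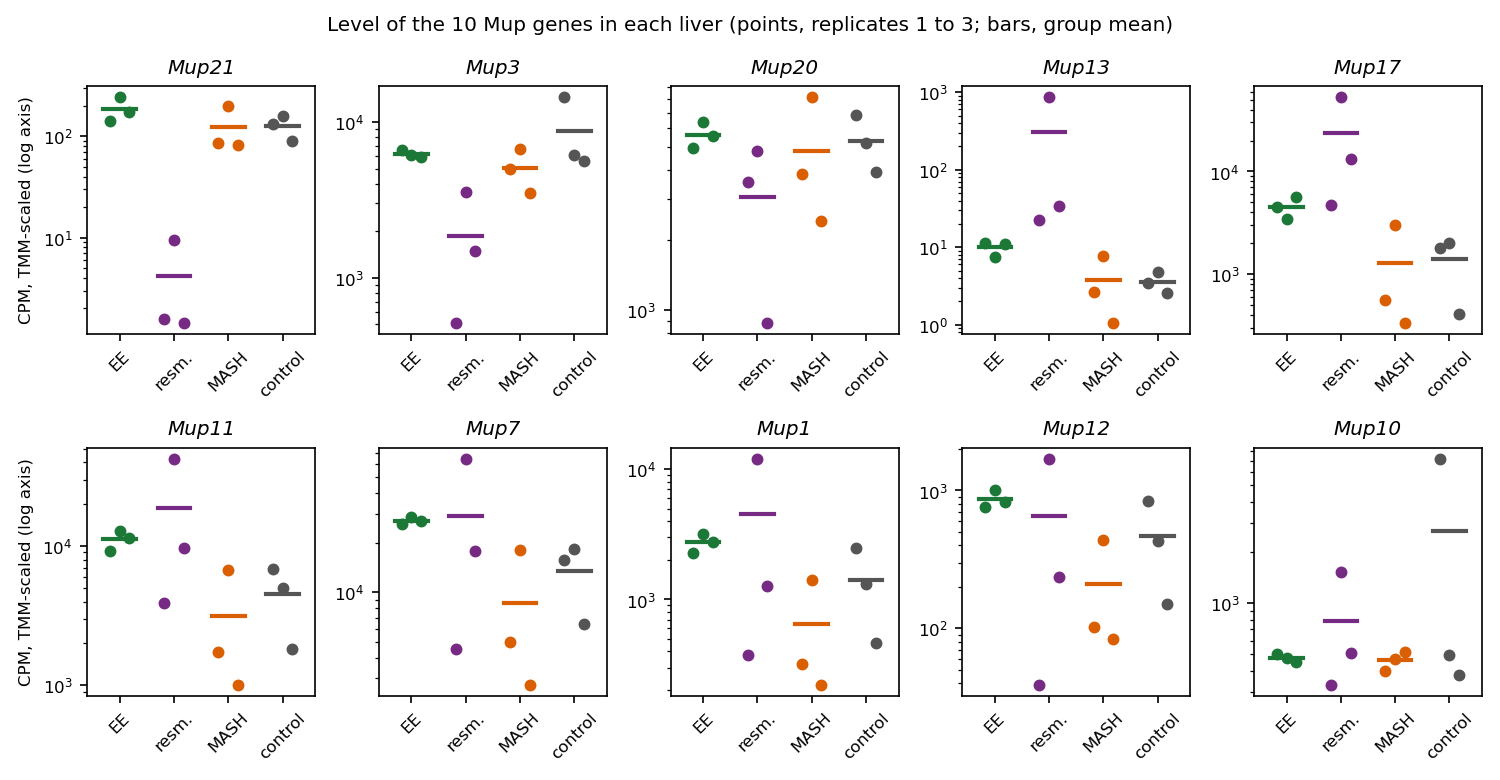
Level of each member in CPM (y axis, log scale, 1 panel per gene) in EE, resmetirom, MASH and control livers (x axis). Points are single livers, replicates 1 to 3 from left to right, and bars are group means. Mup21 lies at 1.43 to 9.43 CPM in resmetirom livers and at 82.5 CPM or more elsewhere, and resmetirom 2 is the highest liver of its group in all 10 panels.

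In EE livers the near-identical members stood above MASH livers in level, but no member passed the test. EE livers had 25783, 28520 and 27030 CPM of Mup7, against 4965, 18064 and 2754 CPM in MASH livers. Mup11 had 9187, 12899 and 11505 CPM in EE livers, against 1733, 6750 and 1015 CPM in MASH livers. In both, the lowest EE liver was above the highest MASH liver. Mup1 had 2283, 3165 and 2778 CPM in EE livers, against 317, 1401 and 222 CPM in MASH livers. Mup12 had 753, 1011 and 827 CPM in EE livers, against 102, 438 and 84.1 CPM in MASH livers. EE livers lay above all MASH livers for Mup1, Mup7, Mup11, Mup12 and Mup17. How many of all tested genes did so was not counted, so this cannot be read as particular to these members. The 3 EE livers were close together while MASH 2 stood well above MASH 1 and 3. The log2 changes of these 5 genes were 2.08 (SE 1.08), 1.66 (SE 0.865), 1.82 (SE 0.868), 2.05 (SE 1.07) and 1.81 (SE 0.947), with edgeR adjusted p from 0.679 to 0.711.

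All 10 members had a positive change in EE against MASH livers, with a median log2 change of 1.53 where all tested genes had -0.023. The smallest were Mup10 (0.051), Mup20 (0.23) and Mup3 (0.30), and those of Mup10 and Mup20 turned negative when MASH 1 and MASH 3 in turn were left out. Mup13 stood at 1.40 and Mup21 at 0.60, with overlapping groups. None of the 10 members was called, where 0.00715% of all tested genes were, a single gene. No member had an unadjusted p under 0.05 in edgeR (4 did in limma voom, 0 in DESeq2, and none was called in either). In edgeR that number varied with the livers in the fit. It was 6 without resmetirom 2 (beside 1443 of 14331 tested genes), 4 without resmetirom 1 and 5 without MASH 2. Without control 1 and resmetirom 2 it was 4, and with only the EE and MASH livers 1. The number of genes called in this comparison varied with the fit, and no member was among them. It was 746 of 13248 with only the EE and MASH livers and 67 without control 1 and resmetirom 2. With the replicate number as a block, 5 genes were called, and 5 of the 10 members had an unadjusted p under 0.05.

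**Figure D4:**
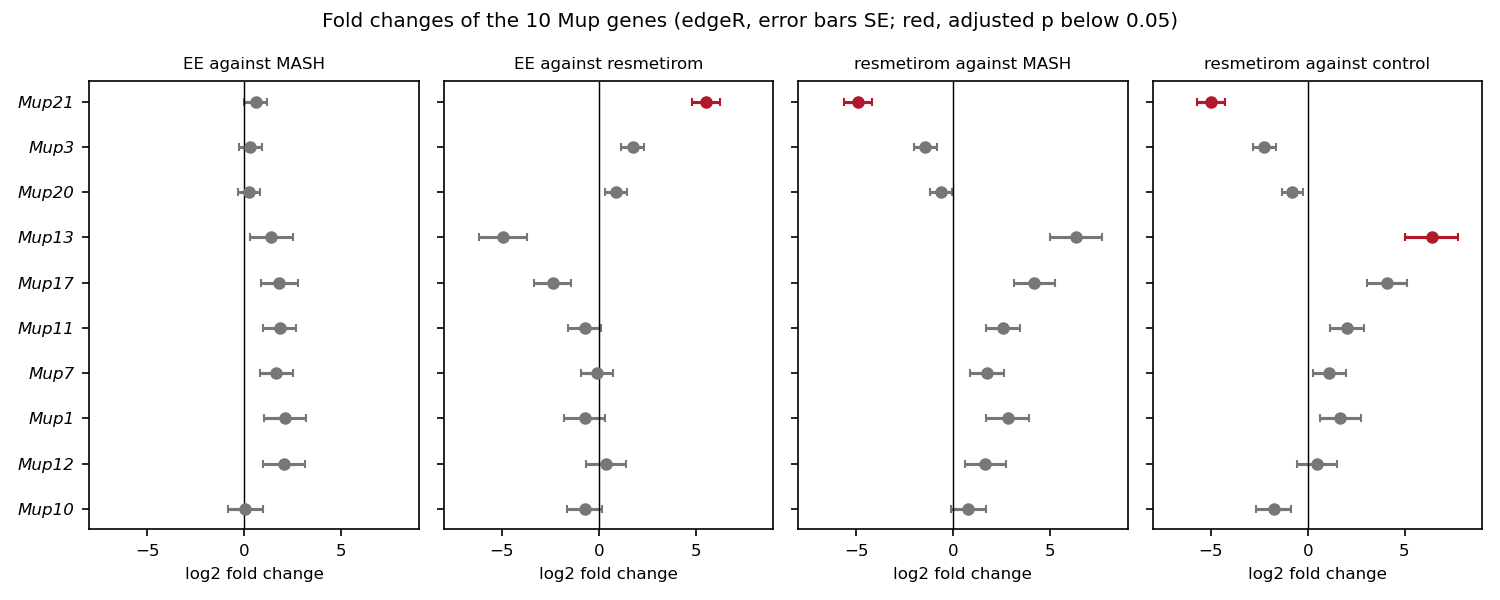
Log2 fold change (x axis) of each member (y axis) in 4 comparisons, tested by edgeR with all 12 livers in 1 fit; error bars are SE and red points have an adjusted p below 0.05. Mup21 is red in the 3 panels with resmetirom livers and Mup13 in 1, and all 10 points of EE against MASH lie above 0 with no red point.

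Against control livers, no member was called in EE livers, and Mup7, Mup11, Mup13 and Mup17 were higher without overlap. The share of all tested genes without overlap was not counted, so this cannot be read as particular to these members. Mup7 had 25783, 28520 and 27030 CPM in EE livers, against 15680, 18310 and 6394 CPM in control livers. Mup11 had 9187, 12899 and 11505 CPM in EE livers, against 6812, 5001 and 1833 CPM in control livers. The log2 changes of Mup7, Mup11, Mup13 and Mup17 were 1.01 (SE 0.851), 1.30 (SE 0.855), 1.46 (SE 1.13) and 1.70 (SE 0.944). None of the 10 members was called, where 0.1% of tested genes were. DESeq2 and limma voom called 0 too, though DESeq2 gave Mup10 and Mup13 no adjusted p. In edgeR 1 member had an unadjusted p under 0.05, Mup10, beside 16.1% of all tested genes. Mup10 was a matter of 1 liver: it had 501, 477 and 450 CPM in EE livers, against 7166, 497 and 376 CPM in control livers, and 396, 465 and 518 CPM in MASH livers. The log2 change of EE against control was -2.49 (SE 0.948, adjusted p = 0.233), and 0.14 (adjusted p = 0.920) without control 1, the liver with 35.4% mitochondrial counts.

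Between MASH and control livers no member differed beyond the spread. EdgeR, DESeq2 and limma voom called 0 of 10, where 0.0143% of all tested genes were called by edgeR, and DESeq2 gave Mup10 no adjusted p. The median log2 change of the members was -0.59, against -0.017 over all tested genes. Mup1 had 317, 1401 and 222 CPM in MASH livers, against 2481, 1307 and 461 CPM in control livers (log2 change -1.13, SE 1.05, adjusted p = 0.765). Mup12 had 102, 438 and 84.1 CPM in MASH livers, against 838, 426 and 149 CPM in control livers (log2 change -1.18, SE 1.05, adjusted p = 0.754). The groups overlapped for every member. Mup10 had the 1 unadjusted p under 0.05 (log2 change -2.54, adjusted p = 0.518), and without control 1 the change was 0.083.

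Mean levels per kilobase of transcript set the members in order within a group. Mup7 had the highest mean in every group, with 29246 ± 1478 CPM per kb in EE, 31232 ± 33969 in resmetirom, 9271 ± 8927 in MASH and 14522 ± 6753 in control livers (SD, n = 3 each). It did not lead in every liver. Mup17 was above it in resmetirom 1 (5066 against 4849 CPM per kb) and Mup3 in MASH 3 (3533 against 2971). The places of near-identical members are uncertain, because their reads could be split. In EE livers Mup11 followed with 12040 ± 2016 CPM per kb, then Mup3 with 6328 ± 373, Mup20 with 6063 ± 765 and Mup17 with 4888 ± 1177. The ranges of Mup7, Mup11 and Mup3 did not overlap there, whereas those of Mup3 and Mup20, and of Mup20 and Mup17, did. In resmetirom livers Mup17 came second (25462 ± 27641 CPM per kb) and Mup11 next (20047 ± 22217), and Mup3 the sixth (1883 ± 1591). In MASH and control livers Mup3 and Mup20 held the second and the third place between them, with 5132 ± 1630 and 5167 ± 3216 CPM per kb in MASH livers and 8859 ± 5000 and 5714 ± 1573 in control livers, and their ranges overlapped. Mup13 was last in EE (10.8 ± 2.38), MASH (4.09 ± 3.72) and control livers (3.89 ± 1.27), and Mup21 last in resmetirom livers (6.13 ± 6.76).

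Of 12 further Mup genes with a symbol, 10 passed the filter on low counts. Mup9, another near-identical copy, was called higher in resmetirom livers, with 3367 to 60935 CPM in resmetirom livers against 221 to 1098 CPM in MASH livers (log2 change 5.66, adjusted p = 0.0481) and 232 to 1143 CPM in control livers (log2 change 5.24, adjusted p = 0.0301). Mup15 had 5450 to 40381 CPM in resmetirom livers, against 301 to 3208 CPM in MASH livers and 496 to 2299 CPM in control livers, and did not pass in edgeR (adjusted p = 0.0987 and 0.0551). Without resmetirom 2 Mup9 did not pass either, with 4.09 against MASH (adjusted p = 0.114) and 3.68 against control livers (adjusted p = 0.0615), though it passed without control 1 as well (adjusted p = 0.0491 and 0.0494). Mup9 was the 1 call of edgeR and of limma voom in both comparisons. DESeq2 called 7 of the 10 against MASH and 5 against control livers, where it called 627 and 1465 of all 14289 genes. In edgeR 10 and 7 had an unadjusted p under 0.05, beside 2102 and 3203 of all 13988 tested genes. In the other 4 comparisons edgeR and limma voom called 0 of the 10 (0 to 2 at an unadjusted p under 0.05 in edgeR), and DESeq2 called 1, in EE against resmetirom livers. Their median log2 change was 3.24 in resmetirom against MASH and 1.50 in EE against MASH livers, beside 1.70 and 1.53 for the members.

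Across the 12 livers, log2 levels of the 7 near-identical members had a Pearson r of 0.161 (Mup10 and Mup13) to 0.973 (Mup1 and Mup7) over 21 pairs, with a median of 0.786. The 6 pairs with Mup10 reached 0.494 at most. Mup3 and Mup21 had an r of 0.874, and Mup13 and Mup21 of -0.564. These are descriptions over 12 livers that share library scaling, and near-identical members may also share reads.

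Promoters are shown for the pair that was low in resmetirom livers and for Mup17, from the RefSeq promoter table (GRCm38.p6), 250 bases before to 50 bases after the start site, all on the minus strand. They lie at chr4:62150792-62151091 for Mup21, chr4:62087268-62087567 for Mup3 and chr4:61595783-61596082 for Mup17. Capitals mark the TATA-like motif TATATAA.
Mup21: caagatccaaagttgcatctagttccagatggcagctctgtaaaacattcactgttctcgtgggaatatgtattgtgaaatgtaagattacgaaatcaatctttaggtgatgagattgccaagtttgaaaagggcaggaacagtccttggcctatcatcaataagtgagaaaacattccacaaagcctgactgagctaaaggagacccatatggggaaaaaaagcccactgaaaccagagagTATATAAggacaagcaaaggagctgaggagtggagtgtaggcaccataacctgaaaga
Mup3: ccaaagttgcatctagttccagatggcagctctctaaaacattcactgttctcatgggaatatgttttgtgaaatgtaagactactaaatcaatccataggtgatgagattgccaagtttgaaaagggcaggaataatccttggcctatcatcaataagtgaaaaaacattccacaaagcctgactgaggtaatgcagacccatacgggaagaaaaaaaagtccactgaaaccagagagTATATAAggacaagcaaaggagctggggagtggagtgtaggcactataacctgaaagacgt
Mup17: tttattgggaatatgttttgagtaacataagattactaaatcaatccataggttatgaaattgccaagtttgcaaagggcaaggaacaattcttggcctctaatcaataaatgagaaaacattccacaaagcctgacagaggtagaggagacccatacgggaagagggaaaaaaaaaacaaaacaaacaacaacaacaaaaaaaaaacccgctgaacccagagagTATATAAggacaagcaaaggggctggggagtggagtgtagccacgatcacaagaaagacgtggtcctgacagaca

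Mup21 and Mup3 were 92.9% identical over 297 aligned bases, and Mup17 and Mup21 74.6%, while Mup17 and Mup11 were 98.9% identical. RefSeq entries matched 6 of the 10 members. On both strands, TTCNNNGAA, the palindrome STAT5 binds, was in 0 of 6 promoters and in 8.30% of 32851 promoters of the same length. AGGTCA, the core that thyroid hormone receptors bind, was in 0 of 6 and in 16.3% of all. TATATAA was in 5 of 6 (not in the Mup7 window) and in 3.24% of all. The Mup7 window ended at bases that lie upstream of the motif in Mup11 and Mup17. It therefore does not show whether Mup7 has the motif. These windows are short, and the absence of these letters says nothing of the factors.

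Genes of growth hormone signalling, the pathway that drives Mup transcription in male mice, were looked at next. Of 15 tested genes on that list, 1 was higher and 1 lower in resmetirom than in control livers, where 3.16% of all tested genes were called, and edgeR called 0 in the other 5 comparisons (2 to 5 in each at an unadjusted p under 0.05, with 0 to 2 called by DESeq2 and 0 by limma voom). Ghr, the growth hormone receptor, averaged 170 ± 50.7 CPM in resmetirom livers and 355 ± 53.3 CPM in control livers (SD, n = 3 each), a log2 change of -1.06 (SE 0.249, edgeR adjusted p = 0.0438). Against the 335 ± 46.9 CPM of MASH livers its change was -0.98 (adjusted p = 0.0987). Stat5a averaged 27.1 ± 3.12 CPM in resmetirom livers and 8.43 ± 0.742 CPM in control livers (log2 change 1.69, adjusted p = 0.0115). Stat5b, the STAT5 form that dominates in liver, averaged 67.6 ± 7.61 CPM in resmetirom livers and 46.4 ± 9.04 CPM in MASH livers (log2 change 0.54, adjusted p = 0.228). The targets Igf1, Socs2 and Cish did not pass in that comparison, with log2 changes of 0.30, 1.46 and 0.36 (adjusted p of 0.817, 0.437 and 0.902). In EE against MASH livers Ghr, Stat5b, Igf1, Socs2 and Cish had changes of -0.20, 0.054, 0.076, 0.85 and -1.97, with adjusted p of 0.759 or more.

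Among transcription factors of Mup and sex-biased liver genes, Zbtb20 was called lower in resmetirom than in control livers. In the other 5 comparisons edgeR called 0 of the factors tested (2 to 8 at an unadjusted p under 0.05), limma voom 0 and DESeq2 0 to 2. Zbtb20, a zinc finger repressor, averaged 32.2 ± 13.1 CPM in resmetirom livers and 82.8 ± 16.9 CPM in control livers (log2 change -1.36, adjusted p = 0.0335). The low level was not particular to resmetirom livers. MASH livers had 40.9, 34.5 and 29.9 CPM of Zbtb20, and EE livers 30.1, 28.3 and 26.1 CPM. All of these lay below every control liver and within the range of the resmetirom livers (17.3 to 41.6 CPM). Hnf4a, Bcl6 and Zhx2 did not pass in any comparison. Hnf4a averaged 552 ± 75.8 CPM in EE livers and 367 ± 32.5 CPM in MASH livers (log2 change 0.59, adjusted p = 0.610). Bcl6, a repressor more active in male mouse liver, averaged 35.4 ± 20.8 CPM in EE livers and 10.8 ± 11.0 CPM in MASH livers (log2 change 1.72, adjusted p = 0.759). Zhx2, a known regulator of Mup genes in mice, averaged 13.4 ± 0.780 CPM in EE and 11.2 ± 0.694 CPM in MASH livers (log2 change 0.26, adjusted p = 0.880). Cux2 fell below the filter.

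Other genes known to be more active in male liver mostly had higher levels in EE than in MASH livers, without a call. Of 27 tested, 25 had a positive change in EE against MASH livers, with a median log2 change of 1.02 against -0.023 over all genes. Calls numbered 0 in edgeR, 2 in DESeq2 and 0 in limma voom. In edgeR 12 had an unadjusted p under 0.05, beside 7.49% of all tested genes. Selenbp2 averaged 1385 ± 751 CPM in EE livers and 191 ± 198 CPM in MASH livers (log2 change 2.86, adjusted p = 0.595). Serpina1e, a serum protease inhibitor, averaged 11876 ± 6852 CPM in EE and 1304 ± 1340 CPM in MASH livers (log2 change 3.19, adjusted p = 0.610). Cyp7b1, an oxysterol hydroxylase, averaged 420 ± 165 CPM in EE and 134 ± 56.1 CPM in MASH livers (log2 change 1.65, adjusted p = 0.604). Susd4 averaged 46.7 ± 12.2 CPM in EE and 18.9 ± 5.44 CPM in MASH livers (log2 change 1.31, adjusted p = 0.595), and Elovl3 173 ± 94.8 and 172 ± 115 CPM in EE and in MASH livers.

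In resmetirom against MASH livers the male-biased list had a median log2 change of 0.0094 beside 0.056 over all genes. Of its 27 tested genes 1 was called lower and 1 higher, where 0.665% of all tested genes were called. Nox4, an NADPH oxidase, averaged 10.2 ± 2.31 CPM in resmetirom livers and 31.8 ± 7.84 CPM in MASH livers (log2 change -1.65, adjusted p = 0.0155). Ntrk2, a neurotrophin receptor, averaged 61.0 ± 9.69 CPM in resmetirom and 2.37 ± 1.38 CPM in MASH livers (log2 change 4.67, adjusted p = 0.00452). In EE against resmetirom livers Nox4, C8a (a complement subunit, log2 change 1.63) and Keg1 (1.70) were called higher and Ntrk2 (-7.31) lower, with adjusted p of 0.0218, 0.0241, 0.0363 and 0.000401. Against control livers, resmetirom livers had C8a (-1.33), Keg1 (-1.39) and Nox4 (-1.84) lower and Ntrk2 (5.44) higher, with adjusted p of 0.0188, 0.0267, 0.00802 and 0.000853. Of all tested genes, 0.307% were called in EE against resmetirom and 3.16% in resmetirom against control livers.

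Female-biased genes were mostly at low levels, and 10 of 20 passed the filter. In EE against MASH livers 9 of these 10 had a negative change, with a median of -1.41 and 0 calls in edgeR, DESeq2 and limma voom. In edgeR 4 had an unadjusted p under 0.05, beside 7.49% of all tested genes. Abcd2, a peroxisomal transporter, averaged 6.40 ± 1.46 CPM in EE and 25.9 ± 5.07 CPM in MASH livers (log2 change -2.01, adjusted p = 0.626). In resmetirom against MASH livers 1 of the 10, Cyp2b9, was called lower, where 0.665% of all tested genes were called. It had 0.478 ± 0.487 CPM in resmetirom and 40.6 ± 37.8 CPM in MASH livers (log2 change -6.30, adjusted p = 0.0392). EE livers had 1.23, 0.218 and 1.27 CPM and control livers 0.602, 0 and 0.152 CPM, all below every MASH liver too. DESeq2 called Cyp2b9 too (adjusted p = 0.00172), but limma voom did not (0.216), nor did edgeR without resmetirom 2 (0.120) or without control 1 as well (0.0554). Cyp17a1, a steroid hydroxylase, averaged 133 ± 66.3 CPM in resmetirom and 8.37 ± 7.93 CPM in control livers (log2 change 3.96, adjusted p = 0.0177).

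Abundant secreted hepatocyte proteins, which share the Mups' route out of the cell, gave 0 calls among 28 in all 6 comparisons in edgeR (0 to 7 at an unadjusted p under 0.05) and limma voom. DESeq2 called 3 in resmetirom against MASH and 5 in resmetirom against control livers. In EE against MASH livers 27 of 28 had a positive change, with a median of 0.53. Alb averaged 70376 ± 1351 CPM in EE, 46581 ± 6861 in resmetirom, 58861 ± 7503 in MASH and 80344 ± 26851 in control livers. Apoa1 averaged 9514 ± 1239 CPM in EE, 10313 ± 5689 in resmetirom, 6438 ± 539 in MASH and 10723 ± 9331 in control livers. Of 9 other lipocalins tested, Ptgds, prostaglandin D synthase, was called higher in resmetirom livers (11.3 ± 11.3 CPM) than in MASH livers (0.0890 ± 0.0775 CPM, adjusted p = 0.0245) and control livers (0.445 ± 0.430 CPM, adjusted p = 0.0298). EE livers had 0.161 ± 0.0449 CPM of Ptgds, lower than resmetirom livers (adjusted p = 0.0463). DESeq2 called Ptgds in all 3 comparisons and limma voom in none (adjusted p of 0.183, 0.128 and 0.303), and without resmetirom 2 the edgeR adjusted p was 0.0622, 0.0697 and 0.0824 (0.0161, 0.0310 and 0.0291 without control 1 as well). Orm1, an acute phase glycoprotein, averaged 170 ± 122 CPM in resmetirom and 647 ± 307 CPM in control livers (log2 change -1.93, adjusted p = 0.0478). Rbp4, the retinol carrier, averaged 3340 ± 211 CPM in EE and 2722 ± 82.4 CPM in MASH livers (adjusted p = 0.877), and Obp2a was below 3 CPM on average in every group.

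Cell type markers were counted beside these results because the Mups come from hepatocytes. All 10 hepatocyte markers were found, with a summed level of 99523 to 109323 CPM in EE, 55387 to 83938 in resmetirom, 79010 to 93479 in MASH and 86175 to 154755 in control livers. In this sum the resmetirom livers overlapped the MASH livers and lay below the EE and control livers. Alb alone gave 38736, 49545 and 51462 CPM of it in resmetirom livers, so the sum largely repeats the Alb level. The 8 Kupffer cell markers summed to 365 to 483 CPM in EE, 301 to 797 in resmetirom, 317 to 388 in MASH and 63.9 to 331 in control livers. The 6 stellate cell markers summed to 115 to 166 CPM in EE, 113 to 406 in resmetirom, 197 to 216 in MASH and 141 to 209 in control livers. Resmetirom 1 had both the highest stellate and the lowest hepatocyte sum of the 12 livers. The 6 pancreatic acinar markers summed to 29.1 to 39.5 CPM in EE, 5.39 to 90.8 in resmetirom, 11.4 to 19.9 in MASH and 12.6 to 19.9 in control livers. Resmetirom 2, the highest resmetirom liver for all 10 members, had the highest acinar sum, and all EE livers lay above all MASH and control livers in it. Endothelial and cholangiocyte markers (5 each) lay between 18.7 and 187 CPM in every liver, T and B cell markers (5 and 4) at 13.7 CPM or less and erythroid markers (5) at 482 to 3742 CPM. Of 5 adipocyte markers 3 were in the table, with 1.47 to 20.5 CPM in EE, 0 to 0.0749 in resmetirom, 16.5 to 40.7 in MASH and 1.94 to 2.91 in control livers. The part of cell make-up in the Mup differences was not tested.

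Among 11134 genes with a mean of at least 1 CPM, those whose log2 level over the 12 livers was most like the summed members were Tspan33 (Pearson r = 0.943), Ces3b (0.940), Nop16 (0.917), Fuz (0.915) and Emc4 (0.914). Those least like it were Slc16a5 (-0.929), Fam129b (-0.922), Mcam (-0.907), Tfpi (-0.890) and Cers6 (-0.885). Ces3b, a liver carboxylesterase, had a median of 463 CPM in EE, 517 in resmetirom, 192 in MASH and 373 in control livers. Cers6, a ceramide synthase, had a median of 5.88 CPM in EE, 3.48 in resmetirom, 10.9 in MASH and 6.17 in control livers.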

How the data were processed

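Poly(A) RNA of 12 livers was sequenced as 150-base pairs from stranded libraries, per the labels' protocols. The submitters' processing notes name fastp and GRCm39 without versions, while the sources used here do not name the aligner, the counter or its strand setting. The authors deposited expected counts for each gene, with totals that differ between libraries, and 91.5% to 93.3% of a column's values are whole. Counts were rounded for the fit and left as deposited for shares.

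The test was edgeR's (version 4.0.16, R 4.3.3; low counts filtered by group with filterByExpr, TMM scaling, robust quasi-likelihood F test, all 12 livers in 1 fit with 8 residual degrees of freedom), adjusted by Benjamini-Hochberg over 13988 genes and called below 0.05. Adjusted p-values come from edgeR where no tool is given, and an SE is the log2 change divided by the square root of F. Correlations used log2 CPM with a prior count of 2. DESeq2 1.42.0 and limma 3.58.1 (voom) were alternatives, beside other scaling, filters, totals without Mup or mitochondrial genes, 2-group fits, a replicate block and leaving out livers. The fits were tested on simulated data. The labels number livers 1 to 3 in each group without saying that a number pairs them. By deviations from group means, the 3 same-numbered EE and MASH pairs (r of 0.149 to 0.190) lay above the 6 others (-0.099 to -0.050). The same order held at lower r for EE and resmetirom livers (0.0165 to 0.115 for same-numbered pairs, -0.101 to 0.0013 for the others). In the remaining pairs of groups, same-numbered and other values overlapped. Symbols, transcripts and lengths came from a GRCm38 annotation (22603 identifiers named), used for names, lengths and sequences only.

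All 10 members are named with every group's values. Of the lists (further Mup genes, lipocalins, growth hormone signalling, transcription factors, male-biased, female-biased and secreted hepatocyte genes, cell type markers), a set of names was fixed by rule and any other gene that passed was added, besides the 5 genes most and the 5 least like the summed members. The members and the lists were chosen with earlier results of these data known. Which members' log2 changes are printed for a comparison was chosen after their values were seen. The result of 1 gene of the transcription factor list is not reported here.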

Additional observations from a re-analysis of the deposited data

How the results depend on the processing

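Of 735 recomputed log2 changes of the members given above, 700 kept their direction and, where an adjusted p existed, side of the threshold. Of the rest, 12 newly passed it, 16 no longer did and 7 turned round. Those 7 were small or rested on 1 liver. Mup10 in MASH against control ran from -3.04 to 0.083 with single livers left out, the last without control 1, and was 0.087 without control 1 and resmetirom 2. In EE against control it ran from -2.99 to 0.14, the last without control 1, and was 0.12 without both. In EE against MASH, Mup10 ran from -0.043 (without MASH 1) to 0.15 and was -0.013 with a replicate block, and Mup20 ran from -0.091 (without MASH 3) to 0.85.

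The number of members called in resmetirom against MASH, 1, was 2 with DESeq2, 0 with only the compared groups, 3 without control 1 and resmetirom 2, and 0 (without any 1 MASH liver) to 2 with single livers left out. In EE against resmetirom the 1 call was 0 with only the compared groups and 2 without both livers. In resmetirom against control the 2 calls were 3 with DESeq2, 1 with limma voom, 1 without a filter, 0 with only the compared groups, 3 without both livers and 1 to 3 with single livers left out. DESeq2 gave Mup13 no adjusted p in the 5 comparisons in which its change is given, and Mup10 none in MASH or EE against control. Such changes were counted above by direction alone, among them that of Mup13 in resmetirom against control, which edgeR called.

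With all Mup genes in the sum, the share of counts differed by 5.32 points for EE minus MASH, 14.0 for resmetirom minus MASH, -8.72 for EE minus resmetirom, 4.98 for EE minus control and 13.7 for resmetirom minus control. Without resmetirom 2, an alternative added after the data were seen, they were 6.27 for resmetirom minus MASH, -0.96 for EE minus resmetirom and 5.94 for resmetirom minus control.

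The labels number replicates 1 to 3 in every group, and 8 of 18 same-numbered pairs correlated above 0.1, against 4 of 36 others, including all 3 of EE and MASH. With the replicate block the members called were 1 in resmetirom against MASH, 1 in EE against resmetirom, 2 in resmetirom against control and 0 elsewhere, the same numbers as without it.

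Without resmetirom 2, the calls of Ghr in resmetirom against control (adjusted p = 0.0508) and C8a in EE against resmetirom (0.0517) missed the threshold.

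Groups of 3 livers, 2 livers that stand apart and near-identical copies limit what single members can show. The causes of the changes above were not tested.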
